A study of Mus musculus with 12 samples.

Results

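Formative and primed pluripotency markers are 7 genes, chosen by name, that are used as markers of stem cells leaving the naive state: Otx2, Pou3f1, Zic2, Foxd3, Sox3, Fgf5 and Cldn6. In these data Foxd3 and Sox3 had their highest level in untreated wild-type stem cells grown in naive conditions. For Foxd3 the Poisson counting interval there, 1011 to 1721, overlapped that of untreated wild-type embryoid bodies, 709 to 1182. The day of the embryoid bodies is not given, so the use of these 2 as markers was not tested. All 7 were found among the 19708 transcript entries of the deposited table, and 6 passed the filter on low levels. Fgf5, with a mean level of 39.9 against a filter of 42.9, did not, and it is given as levels without a test. The libraries were made from 3′ ends of polyadenylated RNA of mouse cells of the C57BL/6 strain, by a protocol equivalent to digital gene expression. There were 4 conditions: Mettl3-KO embryoid bodies (KO EBs), wild-type embryoid bodies (WT EBs), Mettl3-KO embryonic stem cells (KO ESCs) and wild-type embryonic stem cells (WT ESCs). Each was collected 0, 4 and 8 h after actinomycin, which stops transcription. Each of the 12 groups had 1 library and no replicate. ESCs were grown without serum in N2B27 medium with LIF and 2i, a pair of inhibitors that hold cells in the naive state. EBs are floating aggregates in which ESCs differentiate, here in medium with fetal bovine serum and without LIF or 2i. The labels give neither the day of each EB library, nor the part of Mettl3 that was deleted, nor whether the KO line was 1 clone.

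Mettl3 is the catalytic subunit of the enzyme complex that places N6-methyladenosine (m6A) on mRNA, a mark known to shorten the life of many transcripts. The series asks what m6A does as naive pluripotency is resolved. On the way out of that state, cells first enter a formative stage, marked by Otx2 and Pou3f1 (Oct6), and then the primed stage of the epiblast after implantation, marked by Fgf5 and later by genes of early lineages. In formative cells Otx2 is known to help direct Oct4 to a new set of enhancers, and Fgf5 is the usual secreted marker of that epiblast.

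Mettl3 itself (NM_019721, chr14:52294841-52308741) had levels of 16.8, 40.7 and 83.9 in KO EBs at 0, 4 and 8 h, against 175, 86.0 and 77.4 in WT EBs. In KO ESCs it had 98.1, 65.4 and 41.8, against 251, 64.8 and 113 in WT ESCs. At 0 h it was lower in KO than in WT in both cell types, but the difference over the 3 times did not pass the test in EBs (log2 -1.23 ± 0.51 SE, limma adjusted p = 0.175) or in ESCs (-0.84 ± 0.51, limma adjusted p = 0.311). A 3′ tag reports on a deletion only if it lies in the deleted part, so these levels do not check the labels. Column totals ran from 3673848 to 11086748, the lowest in WT EBs at 8 h, and the libraries held 208874 to 666804 read equivalents, as inferred from the steps of the values. Among 1409 genes of families that should be silent here, such as olfactory receptors, 34.0% to 36.1% were above 0 in KO EBs, 26.6% to 33.9% in WT EBs, 6.96% to 9.01% in KO ESCs and 6.67% to 9.51% in WT ESCs. The level that 95% of these silent genes stayed under was 43.9 to 51.3 in KO EBs, 45.2 to 72.4 in WT EBs, 23.6 to 26.2 in KO ESCs and 18.8 to 30.7 in WT ESCs. All levels are in the units of the deposited table, and levels are compared within a gene only. In bulk samples such as these, fewer cells of a type and less RNA per cell cannot be told apart.

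**Figure D1:**
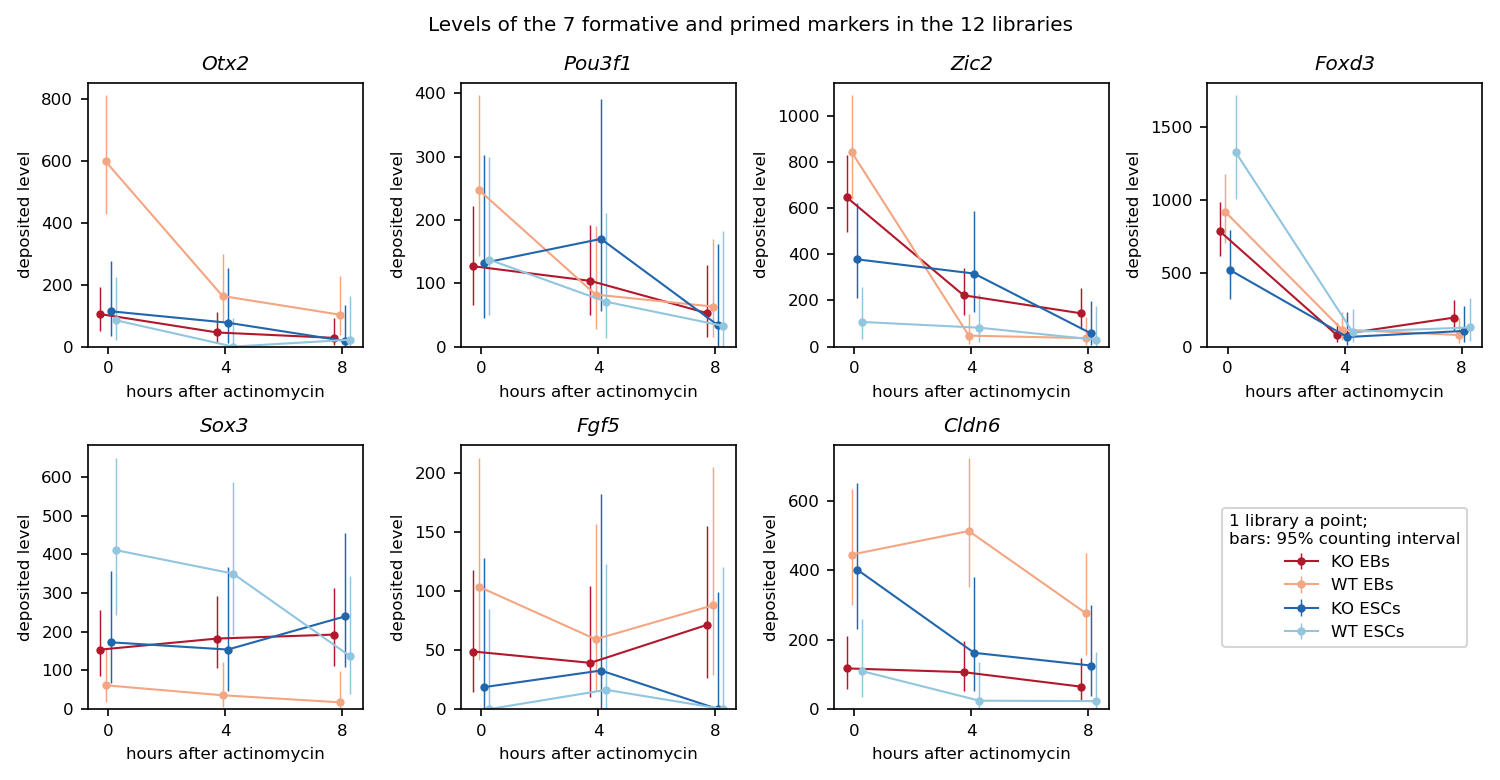
Deposited level (vertical axis, the table's own units) of each of the 7 markers against hours after actinomycin, 1 point a library, with the 95% Poisson counting interval as a bar. Otx2 and Cldn6 lie highest in WT EBs, Sox3 lies lowest there, and Foxd3 drops at 4 h in all 4 conditions.

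Otx2 (NM_144841, chr14:48656781-48667644, GRCm38) is a homeobox transcription factor of the formative epiblast and of the anterior visceral endoderm. At 0, 4 and 8 h its level stood at 105, 45.6 and 28.1 in KO EBs, with 599, 164 and 103 in WT EBs. It was 114, 77.2 and 18.2 in KO ESCs, against 84.9, 0 and 22.2 in WT ESCs. The untreated WT EB library stood apart from the other 11, and at each time the WT EB level was above the KO EB level, although the ranges over the 3 times met at 103 to 105. A level of 0 in a library of this depth allows up to 91.3 by the 95% Poisson interval, and 10 of the 12 libraries held fewer than 10 read equivalents of Otx2. In KO EBs at 4 and 8 h Otx2 lay above 95.2% and 85.5% of the silent genes, so its levels there were close to the background. Over the 3 times Otx2 was 2.96 ± 0.69 log2 units higher in WT EBs than in WT ESCs (limma adjusted p = 0.00396). When the 0 h or the 8 h library of WT EBs was left out, that difference was 2.56 and missed the threshold, with limma adjusted p = 0.133 and 0.118. It was 4.73 without the 0 h or the 8 h library of WT ESCs and 2.08 without their 4 h library, which held 0. The KO EB level was 1.90 log2 units below that of WT EBs (-1.90 ± 0.69, 95% interval from -3.37), a difference that did not pass (limma adjusted p = 0.114). It passed when the EB libraries were fitted alone (limma adjusted p = 0.00205) and with a pseudocount of 5 ppm (limma adjusted p = 0.0192). In ESCs, KO minus WT was 1.17 ± 0.69 over the 3 times (limma adjusted p = 0.296), and 0.39, 3.32 and -0.20 at 0, 4 and 8 h, so most of it came from the library that held 0. It was 0.29 without that library, and 2.94 without the 0 h or the 8 h library of WT ESCs, where it passed (limma adjusted p = 0.0171 and 0.015). In KO, EBs minus ESCs was -0.11 ± 0.69 log2 units, a sign that changed under the 3 other scalings (0.17 to 0.46). Otx2 overlaps Otx2os1 on the opposite strand and Gm49154 on the same strand, and since strand use in the counting is not stated, their reads cannot be told apart from its own.

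Pou3f1 (NM_011141, chr4:124657646-124660655) encodes a POU-domain factor, Oct6, which marks the formative stage and later the neural lineage. Its levels were 127, 104 and 52.7 in KO EBs, with 248, 82.1 and 63.3 in WT EBs, and 132, 170.2 and 33.8 in KO ESCs, against 137, 70.8 and 32.7 in WT ESCs. All 4 conditions overlapped, and no level difference passed. The KO minus WT difference was -0.28 ± 0.49 log2 units in EBs and 0.39 ± 0.49 in ESCs (limma adjusted p = 0.843 and 0.667), and the EB minus ESC difference in WT was 0.60 ± 0.49 (limma adjusted p = 0.384). Its locus overlaps Gm2164 on the opposite strand, with the same limit on its reads.

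Zic2 (NM_009574, chr14:122475384-122480328) encodes a zinc-finger factor that binds enhancers in cells leaving the naive state. At 0 h its level was 647 in KO EBs, against 841 in WT EBs, and 378 in KO ESCs, against 107 in WT ESCs. The counting intervals of the KO EB and WT EB libraries overlapped at 0 h, 494 to 831 against 637 to 1089. At 4 and 8 h it was 222 and 144 in KO EBs, with 47.3 and 36.6 in WT EBs, and 316 and 56.9 in KO ESCs, against 81.7 and 29.4 in WT ESCs. The WT EB levels at 4 and 8 h lay above only 91.8% and 86.7% of the silent genes, close to the background. Zic2 was higher in KO than in WT in 5 of the 6 pairs of libraries of the same cell type and time. The median of all genes was above 0 in the same 5 pairs. Its KO minus WT values at 0, 4 and 8 h were -0.18, 0.11 and 0.38 log2 units in EBs. In ESCs they were 0.03, 0.23 and 0.26. Over the 3 times, KO minus WT of Zic2 was 1.14 ± 0.52 log2 units in EBs and 1.46 ± 0.52 in ESCs, and neither passed (limma adjusted p = 0.226 and 0.0788). The EB value was 2.35 without the 0 h or the 8 h library of WT EBs and 0.54 without their 4 h library, and it passed limma's test in 0 of the 12 fits that left out 1 library. The ESC difference passed without any 1 of the 3 WT EB libraries (limma adjusted p = 0.0392 to 0.049).

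Foxd3 (NM_010425, chr4:99656299-99658671) is a forkhead factor that is needed for the epiblast and for neural crest. At 0 h its level was 789 in KO EBs, against 923 in WT EBs, and 523 in KO ESCs, against 1331 in WT ESCs. The ESC counting intervals at 0 h were 323 to 800 in KO and 1011 to 1721 in WT, which did not overlap, while those of the EBs did. At 4 and 8 h it was 79.5 and 198 in KO EBs, with 116 and 79.2 in WT EBs, and 65.4 and 107 in KO ESCs, against 101 and 130.9 in WT ESCs. Over the 3 times the KO minus WT difference was 0.17 ± 0.71 log2 units in EBs and -0.72 ± 0.71 in ESCs, and neither passed (limma adjusted p = 0.942 and 0.555). The EB value was below 0 with equal column totals (-0.046) and with ribosomal protein scaling (-0.18). The annotated miRNA gene Gm23366 overlaps the locus on the same strand, and its reads cannot be told apart from those of Foxd3.

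Sox3 (NM_009237, chrX:60891366-60893430) encodes a SoxB1 factor, a close relative of Sox2, of the epiblast and the neural plate. Its levels were 154, 182 and 192 in KO EBs, with 61.5, 35.7 and 17.6 in WT EBs. In KO ESCs they were 173, 154 and 239, against 410.5, 349.9 and 137 in WT ESCs. The EB genotypes did not overlap, and the ESC genotypes did. Over the 3 times Sox3 was 2.09 ± 0.39 log2 units higher in KO EBs than in WT EBs (limma adjusted p = 0.00321). That difference was 1.21, 2.11 and 2.94 at 0, 4 and 8 h. The EB counting intervals at 0 h overlapped, 85.0 to 256 in KO against 17.4 to 154 in WT. In WT, Sox3 was 2.69 log2 units lower in EBs than in ESCs over the 3 times (-2.69 ± 0.39, limma adjusted p = 0.000123). In the WT EBs Sox3 lay above only 97.3%, 89.1% and 74.4% of the silent genes, so its level there was close to the background. In KO, EBs minus ESCs was -0.08 ± 0.39 log2 units, a sign that also changed under the 3 other scalings (0.26 to 0.58). In ESCs, KO minus WT was -0.53 ± 0.39 (limma adjusted p = 0.417). The EB call did not survive leaving out the 0 h or the 8 h library of KO EBs (2.14, limma adjusted p = 0.104 and 0.115) or of WT EBs (2.05, limma adjusted p = 0.06 and 0.0593).

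Cldn6 (NM_018777, chr17:23679348-23682446) encodes claudin 6, a tight-junction protein of early embryonic epithelia. Its levels were 117, 107 and 64.9 in KO EBs, with 446, 514 and 276.5 in WT EBs. In KO ESCs they were 402, 162 and 126, against 109, 24.3 and 22.9 in WT ESCs. The genotypes overlapped in neither cell type, and their order was opposite in the 2. Cldn6 was 2.00 log2 units lower in KO EBs than in WT EBs (-2.00 ± 0.42, limma adjusted p = 0.00716), 2.09 ± 0.42 higher in KO ESCs than in WT ESCs (limma adjusted p = 0.00453), and 3.04 ± 0.42 higher in WT EBs than in WT ESCs (limma adjusted p = 8.75e-05). In WT ESCs at 4 and 8 h Cldn6 held only 0.98 and 0.70 read equivalents and lay above 96.7% and 91.3% of the silent genes, so the differences against WT ESCs rest in part on levels close to the background. In KO, EBs minus ESCs was -1.05 ± 0.42 (limma adjusted p = 0.0834). The ESC call missed the threshold when either the 0 h or the 8 h library of KO ESCs was left out (1.79, limma adjusted p = 0.101 and 0.0967). The EB call missed it when the 0 h or the 8 h library of KO EBs (-1.82, limma adjusted p = 0.216 in both cases) or of WT EBs (-2.35, limma adjusted p = 0.0556 and 0.0573) was left out.

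Fgf5 (NM_010203, chr5:98254184-98277033), the secreted growth factor of the primed epiblast, was low in all 12 libraries. Its levels were 48.8, 39.2 and 71.5 in KO EBs, with 104, 59.2 and 87.9 in WT EBs, and 18.6, 32.7 and 0 in KO ESCs, against 0, 16.3 and 0 in WT ESCs. The EB genotypes overlapped. Fgf5 lay above 93.1% to 98.4% of the silent genes in KO EBs and 94.9% to 99.2% in WT EBs, and in WT EBs at 0 h it was above the level that 99% of them stayed under, 88.3. No library held more than 7.06 read equivalents of Fgf5, and in WT ESCs at 0 h the 95% Poisson interval of its level reached 84.7. It was tested only where the filter was dropped or another scaling let it pass. In these 4 settings it was 2.88 to 3.45 log2 units higher in WT EBs than in WT ESCs (limma adjusted p = 0.00464 to 0.0123), while no other comparison of Fgf5 passed. Of all genes, 1403 of 18858 were called higher in WT EBs with no filter. With equal column totals, median-ratio and ribosomal protein scaling the share was 14.6%, 10.4% and 10.7%. Under these scalings Fgf5 passed the filter through its EB levels, so those calls are no further support. Its WT ESC levels of 0, 16.3 and 0 make the size depend on the pseudocount.

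In EBs, 1 of the 6 tested markers was higher in KO (Sox3) and 1 was lower (Cldn6), where 7.66% of all 12704 genes were called higher and 1.56% lower. In ESCs, 1 of the 6 was higher in KO (Cldn6) and 0 were lower, where 10.9% of all genes were called higher and 3.27% lower. In WT, 2 were higher in EBs than in ESCs (Otx2 and Cldn6) and 1 was lower (Sox3), where 3.49% of all genes were called higher and 29.1% lower. In KO, 0 of the 6 passed limma's threshold between EBs and ESCs, 1 had an unadjusted p under 0.05 (Cldn6), and 0.929% of all genes were called higher and 23.2% lower. The median difference between EBs and ESCs over the 6 markers was -0.07 log2 units in KO, beside -0.61 over all genes, and 0.71 in WT, beside -0.50 over all genes. The markers' KO minus WT median was -0.05 in EBs, beside 0.09 over all genes, and 0.78 in ESCs, beside 0.18. The KO and WT comparisons between cell types, and the EB and ESC comparisons between genotypes, are linked by the libraries they share.

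**Figure D2:**
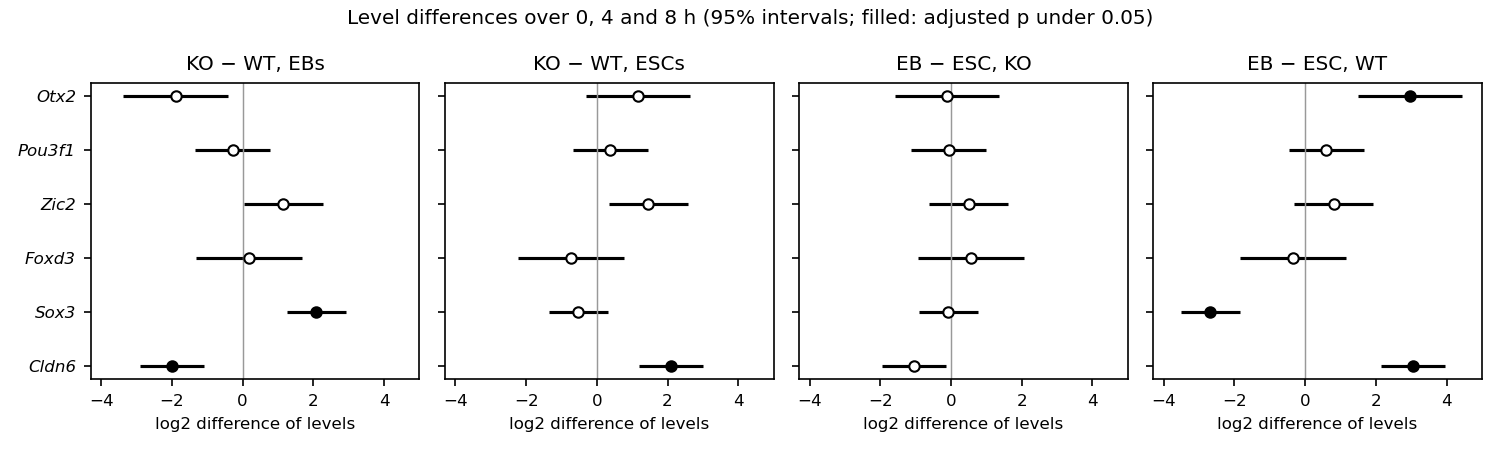
Level difference in log2 units (horizontal axis, mean over 0, 4 and 8 h) for the 6 tested markers in the 4 comparisons, with 95% intervals of limma, filled where the adjusted p was under 0.05. In WT, Otx2 and Cldn6 are filled on the EB side and Sox3 on the ESC side, and 0 of the 6 are filled in KO.

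The KO minus WT difference itself was compared between EBs and ESCs. It was higher in EBs for 1 of the 6 markers and lower for 1, where 1.5% of all genes were called higher and 1.35% lower. For Cldn6 it was lower in EBs than in ESCs (-4.09 ± 0.60 log2 units, limma adjusted p = 0.00123), and for Sox3 it was higher (2.61 ± 0.55, limma adjusted p = 0.0176). Otx2 had the sign pattern of Cldn6, lower in KO in EBs and higher in KO in ESCs, but its ESC sign rests on 1 library and its difference of -3.07 ± 0.98 did not pass (limma adjusted p = 0.119). It passed with a pseudocount of 5 ppm (-2.02, limma adjusted p = 0.0448) and without the 0 h or the 8 h library of WT ESCs (-4.83, limma adjusted p = 0.00814 and 0.00741), and was -2.19 without their 4 h library. For Pou3f1 it was -0.67 ± 0.70, for Zic2 -0.32 ± 0.74 and for Foxd3 0.89 ± 1.00, none of which passed. The Cldn6 call was kept in each of the 12 fits that left out 1 library. The Sox3 call was lost with ribosomal protein scaling (2.23, limma adjusted p = 0.0543) and with no variance trend (limma adjusted p = 0.0615). It was kept in 5 of the 12 fits that left out 1 library, with values of 2.43 to 2.97, and missed the threshold when any KO EB library, or a 0 or 8 h library of WT EBs or KO ESCs, was left out. Without both EB libraries of 8 h, Cldn6 was -4.27 (limma adjusted p = 0.134) and Sox3 was 2.63 (limma adjusted p = 0.481).

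**Figure D3:**
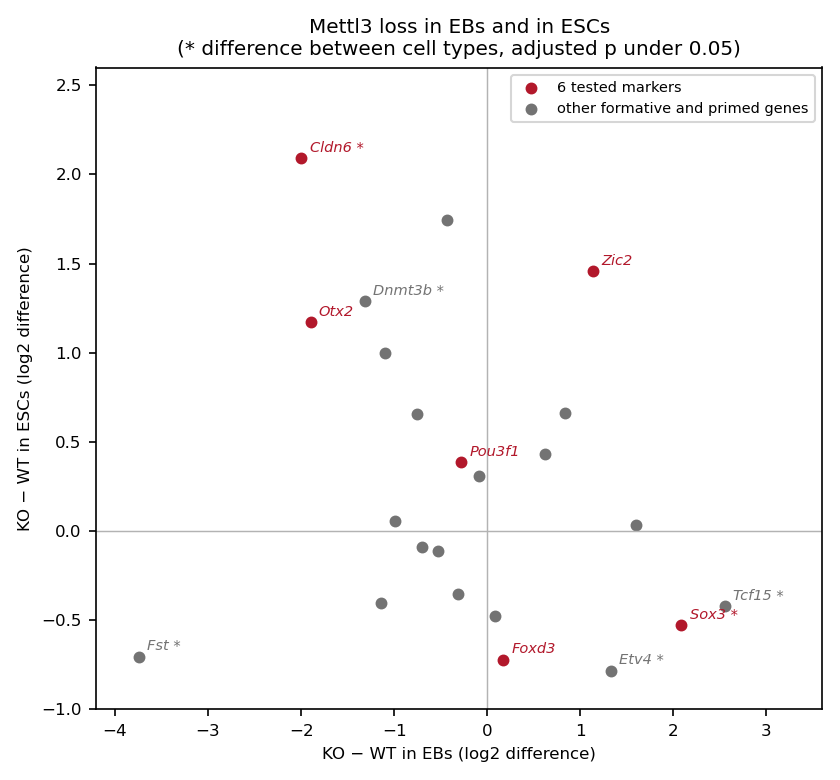
KO minus WT difference in EBs (horizontal axis, log2 units) against the same in ESCs (vertical axis, log2 units) for the 6 tested markers and 17 other formative and primed genes, 1 point a gene. Cldn6, Otx2 and Dnmt3b lie at the upper left, lower in KO EBs and higher in KO ESCs, and Sox3, Tcf15 and Etv4 lie at the lower right; a star marks an adjusted p under 0.05 for the difference between cell types.

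Among 18 other genes of the formative and primed stages, 17 were tested. In EBs, 2 were higher in KO and 2 lower, where 7.66% of all genes were called higher and 1.56% lower. In ESCs, 2 were higher in KO (Pim2, 1.74 ± 0.40, and Dnmt3b) and 1 lower (Etv4), where 10.9% of all genes were called higher and 3.27% lower. The higher counts are thus near the share of all genes. The list's KO minus WT median was -0.43 log2 units in EBs, beside 0.09 over all genes, and 0.03 in ESCs, beside 0.18. The gene of the de novo DNA methyltransferase Dnmt3b moved in opposite directions, as Cldn6 did. Its levels were 898, 1243 and 856 in KO EBs, with 3829, 2835 and 1382 in WT EBs, and 2393, 3542 and 2526 in KO ESCs, against 1333, 1240.3 and 878 in WT ESCs. The genotypes did not overlap in either cell type, and the difference was -1.32 ± 0.24 in EBs (limma adjusted p = 0.0024) and 1.29 ± 0.24 in ESCs (limma adjusted p = 0.00245). The difference between the cell types was -2.60 ± 0.34 (limma adjusted p = 0.000415). With no variance trend these 3 calls of Dnmt3b were lost, and the genotype calls were each lost in 2 of the 12 fits that left out 1 library.

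Tcf15, a helix-loop-helix factor of cells primed to differentiate, had levels of 1073, 1072 and 968 in KO EBs, with 515, 187 and 46.4 in WT EBs. It was 556, 906 and 1061 in KO ESCs, against 2260.5, 1314 and 435 in WT ESCs. It was 2.55 ± 0.26 log2 units higher in KO EBs than in WT EBs (limma adjusted p = 1.84e-05), with no overlap, and Sox3 shared that order of the 4 conditions in their medians, with WT EBs lowest. Etv4, an ETS factor downstream of FGF signalling, was 1.33 ± 0.24 higher in KO EBs than in WT EBs and 0.78 lower in KO ESCs than in WT ESCs (-0.78 ± 0.24). The ESC call of Etv4 was kept in 5 of the 12 fits that left out 1 library and in 7 of 12 other settings. Fst, which encodes the activin-binding protein follistatin, was 3.75 log2 units lower in KO EBs than in WT EBs (-3.75 ± 0.37), with levels of 77.0, 49.9 and 43.9 in KO EBs, with 1125, 737 and 742 in WT EBs. Between WT EBs and WT ESCs, 3 of the 17 were higher in EBs (Fst, 2.41, Pim2, 1.78, and Dnmt3b, 1.12) and 4 were lower (Tcf15, -2.63, Etv4, -2.36, Etv5, -1.12, and Tead2, -0.85). In KO, 0 were higher and 2 were lower (Dnmt3b, -1.49, and Tead2, -1.24). Of all genes, 3.49% were called higher and 29.1% lower in WT, and 0.929% and 23.2% in KO. With equal column totals or median-ratio scaling the Etv5 and Tead2 calls in WT and both lower calls in KO were lost.

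Markers of other cell types moved beside these genes. The summed level of 12 visceral endoderm markers (Afp, Ttr, Dab2 and others) was 375 to 546 in KO EBs, against 5335 to 8856 in WT EBs, and 487 to 566 in KO ESCs, against 387 to 536 in WT ESCs. Of the 8 tested, 6 were lower in KO EBs than in WT EBs, where 1.56% of all genes were called lower. In WT, 6 were higher in EBs than in ESCs, where 3.49% of all genes were called higher. Ttr, Dab2 and Apoa1 passed the filter only through their WT EB levels, so these counts were in part set by the filter. Cer1 was at 0 in 11 of the 12 libraries. The summed endoderm level of WT EBs did not overlap that of the other 3 conditions, nor did the level of Fst. At each time Otx2 too was highest in WT EBs. Its WT EB level at 8 h was below its KO EB and KO ESC levels at 0 h, so its ranges over time overlapped. Of 7 epithelial genes, 6 were higher in KO ESCs than in WT ESCs, among them Krt18 (3.84 ± 0.66), Krt8 (3.46 ± 0.29) and Cldn3 (3.11 ± 0.45), and 2 were lower in KO EBs than in WT EBs, Cldn7 (-2.09 ± 0.40) and Krt8 (-1.71 ± 0.29). Of all genes, 10.9% were called higher in KO ESCs and 1.56% lower in KO EBs. The summed epithelial level was 13501 to 15288 in KO ESCs, against 5542 to 7439 in WT ESCs, and 6723 to 9303 in KO EBs, against 6616 to 13495 in WT EBs, so the EB genotypes overlapped. The part these cell types had in the values of Otx2, Fst and Cldn6 was not tested.

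After actinomycin, 5 of the 6 tested markers fell with time as the mean of the 4 conditions, where 21.4% of all genes fell. The median slope of the 6 was -0.22 log2 units per hour, beside -0.05 over all genes. The steepest were Foxd3, at -0.34 ± 0.08 (limma adjusted p = 0.0055), and Zic2, at -0.33 ± 0.06 (limma adjusted p = 0.00097). Otx2 had -0.25 ± 0.07, Pou3f1 -0.20 ± 0.05 and Cldn6 -0.16 ± 0.05 (limma adjusted p = 0.0285, 0.013 and 0.0246), and Sox3, at -0.07 ± 0.04, did not pass (limma adjusted p = 0.29). Of the fits that left out 1 library, the Otx2 call was kept in 5 of 12, with slopes of -0.41 to -0.08, that of Pou3f1 in 6 and that of Cldn6 in 5. The Otx2 call was also kept in only 2 of 8 other settings. With equal column totals or median-ratio scaling, 2 of the 6 fell, Foxd3 and Zic2, and with ribosomal protein scaling 3 did. The count ranged from 0 to 5 when 1 library was left out. It was 0 without the WT EB library of 0 h, where Zic2 had -0.21 and a limma adjusted p of 0.0504, the only such fit that lost Zic2, and Foxd3 was lost in 4 of the 12. Each slope depends on how the table was scaled and gives no half-life. Among the 17 other formative and primed genes, 5 fell, among them Nodal, a ligand of the TGF-beta family, at -0.43 ± 0.08 log2 units per hour, Etv5 at -0.19 ± 0.03, Tcf15 at -0.15 ± 0.03 and Fst at -0.15 ± 0.04. The Fst call was lost under the 3 other scalings and that of Tcf15 with median-ratio scaling.

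Foxd3 lost most of its level by 4 h in every condition. At 4 h, 10.1% of the 0 h level was left in KO EBs, against 12.6% in WT EBs, and 12.5% in KO ESCs, against 7.59% in WT ESCs. At 8 h it was 25.1% in KO EBs, against 8.57% in WT EBs, and 20.5% in KO ESCs, against 9.83% in WT ESCs. The median gene kept 87.3% at 4 h in KO EBs, against 68.8% in WT EBs, and 94.0% in KO ESCs, against 79.8% in WT ESCs. The Foxd3 shares were close to each other at 4 h, with counting intervals that overlapped in all pairs, and far under the median gene in all 4 conditions.

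In the deposited levels, the Zic2 share left in EBs differed between genotypes beyond counting error at 4 h. The WT EB levels at 4 and 8 h were close to the background, with 2.94 and 2.08 read equivalents. They lay above only 91.8% and 86.7% of the silent genes. In KO EBs 34.4% was left at 4 h (95% counting interval 19.8% to 57.3%), against 5.63% in WT EBs (1.10% to 17.5%), which did not overlap. At 8 h it was 22.3% in KO EBs (11.0% to 41.8%), against 4.35% in WT EBs (0.547% to 16.1%), which did. In KO ESCs 83.7% was left at 4 h, against 76.7% in WT ESCs, and at 8 h 15.1% and 27.6%, with intervals that overlapped. The intervals cover counting error of single libraries only. The median gene also kept more in KO EBs at 4 h, 87.3% against 68.8% in WT EBs. The Zic2 shares were not corrected for this, so their gap depends on the scaling. The slope of Zic2 in EBs was 0.27 ± 0.16 log2 units per hour less steep in KO than in WT, which did not pass (limma adjusted p = 0.454).

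Sox3 kept 119% and 125% of its 0 h level at 4 and 8 h in KO EBs, against 58.1% and 28.6% in WT EBs. In KO ESCs it kept 89.2% and 139%, against 85.2% and 33.3% in WT ESCs. The counting intervals of the genotypes overlapped at both times in both cell types. At 8 h they were 57.7% to 274% in KO EBs, against 0.586% to 281% in WT EBs. In ESCs they were 45.6% to 443% in KO, against 8.49% to 99.5% in WT. The WT EB library of 8 h held 1.0 read equivalent of Sox3. At 8 h the KO share was above the WT share in both cell types. The same held for the median gene at 8 h, with 79.2% in KO EBs, against 46.0% in WT EBs, and 90.6% in KO ESCs, against 71.2% in WT ESCs. The KO minus WT slope was 0.22 ± 0.12 log2 units per hour in EBs (95% interval from -0.04, limma adjusted p = 0.404) and 0.25 ± 0.12 in ESCs (95% interval from -0.01, limma adjusted p = 0.52), and neither passed. Otx2 had 43.4% and 26.8% left at 4 and 8 h in KO EBs, against 27.3% and 17.3% in WT EBs. The KO EB shares of Otx2 rest on 4.28 and 2.36 read equivalents at 4 and 8 h, close to the background. For Cldn6 the shares were 90.8% and 55.3% in KO EBs, with 115% and 62.0% in WT EBs. Pou3f1 kept 81.8% and 41.5% in KO EBs, with 33.1% and 25.6% kept in WT EBs. In these 3, as in Sox3, the EB intervals of the genotypes overlapped at both times. In limma's test of the KO minus WT slope, 0 of the 6 markers passed in EBs, where 1.19% of all genes were called, and 0 of the 6 in ESCs, where 0.0394% were. At an unadjusted p under 0.05 the count was also 0 of 6 in both cell types. Of the 17 other formative and primed genes, Tcf15 passed in EBs, with a slope 0.39 ± 0.08 less steep in KO than in WT (limma adjusted p = 0.0366), and 0 passed in ESCs. This call was lost with no filter on low levels, under the 3 other scalings and with no variance trend (limma adjusted p up to 0.653), and was kept in 1 of the 12 fits that left out 1 library.

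**Figure D4:**
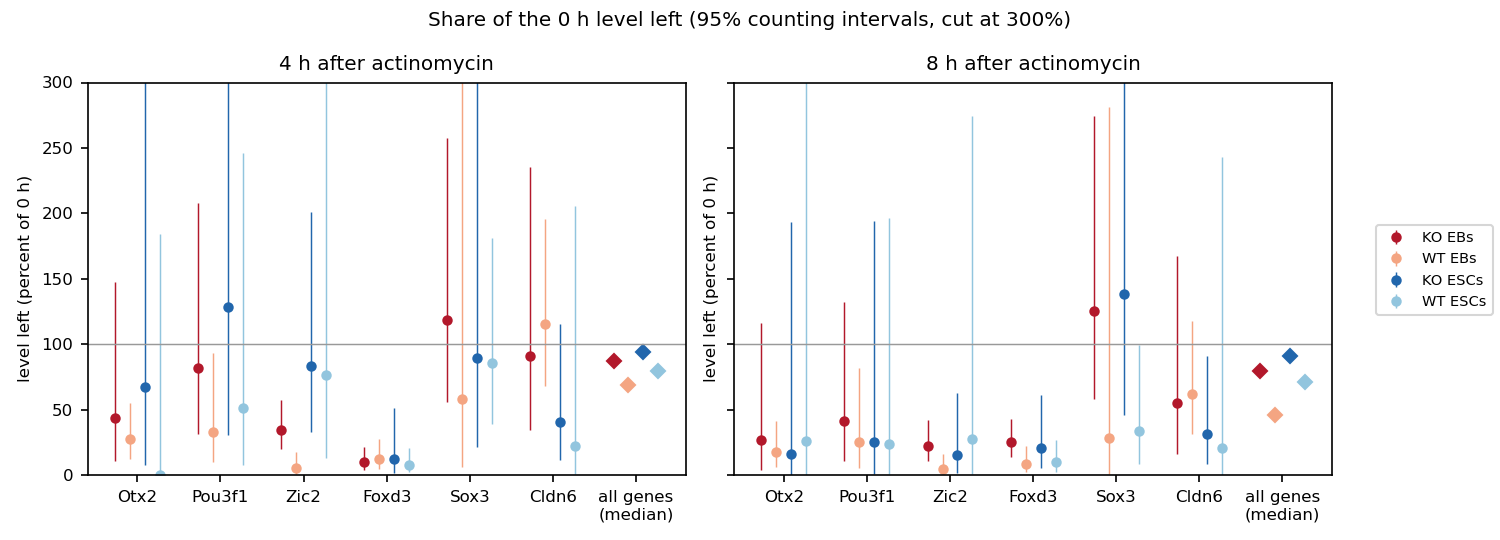
Share of the 0 h level left at 4 h (left) and 8 h (right) in percent (vertical axis) for the 6 tested markers, 1 point a condition, with 95% counting intervals that end at the panel's upper edge where wider; diamonds give the median of all genes. Foxd3 lies at 7.59% to 12.6% at 4 h in all 4 conditions, and Zic2 in EBs lies at 34.4% in KO and 5.63% in WT.

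Because m6A is placed mostly in a GGAC context, often in 3′ untranslated regions (UTRs), and because AU-rich elements with ATTTA mark many short-lived mRNAs, the annotated 3′ UTRs of the 7 genes were searched on the transcript strand for the motifs ATTTA and GGACT, whose letters cannot overlap (GENCODE M21, GRCm38). Of 17783 transcripts with an annotated 3′ UTR, of median length 818 bases, 54.9% held GGACT and 61.8% held ATTTA. The GGACT motif was found in 3 of the 7 genes: once in Foxd3, once in Sox3 and 3 times in Pou3f1. The 3′ UTR of Otx2 (535 bases), Zic2 (609), Cldn6 (723) and Fgf5 (1478) held none. ATTTA was found once each in Otx2, Foxd3 and Sox3, 6 times in Pou3f1 and 4 times in Fgf5, and in neither Zic2 nor Cldn6. The matches in Foxd3, whose level dropped in every condition, and in Sox3, which kept its 0 h level in KO EBs, are printed because these genes have the steepest and the flattest mean slope of the 6 tested. The GGACT matches of Pou3f1 are printed because it holds the most of that motif, and its 6 ATTTA matches are not shown. The motif is in capitals.
Foxd3 GGACT, chr4:99658146-99658174, plus strand: ctacccaatcctGGACTctgctacccgcc
Foxd3 ATTTA, chr4:99658428-99658456, plus strand: gcaattcagtagATTTAgagctttgaact
Sox3 GGACT, chrX:60891876-60891904, minus strand: gcagcggaaatgGGACTtgctagagccgc
Sox3 ATTTA, chrX:60891578-60891606, minus strand: aagccaatgttaATTTAtagccaggtgtg
Pou3f1 GGACT, chr4:124659057-124659079, plus strand: ccctgcGGACTgggttccccgcc
Pou3f1 GGACT, chr4:124659110-124659138, plus strand: cgcgcgcggcctGGACTctttttgttgtt
Pou3f1 GGACT, chr4:124659508-124659536, plus strand: tctcccgggcgcGGACTccctgtagcctg
Zic2 held neither motif in its annotated 3′ UTR, and Foxd3 and Sox3 each held 1 of both. A link between the motifs and the slopes was not tested. A match is a run of letters and not a measured m6A site, coding sequence was not searched, and the deposited levels carry no measure of m6A.

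The likeness of each marker to other tested genes was described by Pearson's r of log2 levels over the 12 libraries, which share the 4 conditions, the 3 times and the deposited scaling. The 3 genes most like Cldn6 were Sertad2 (r = 0.946), Dcn (0.941) and Anxa2 (0.92), and those most like Otx2 were Rnf122 (0.882), Dpy19l4 (0.874) and Pold4 (0.869). Sox3 was most like 2210409E12Rik (0.971), Atxn3 (0.954) and Adgrb1 (0.94), and Foxd3 like the histone genes H2ac23 (0.926) and H2ac24 (0.923) and Cry2 (0.92). Zic2 was most like Fam83h (0.897), Flcn (0.889) and Phf13 (0.885), and Pou3f1 like Arc (0.916), Chd2 (0.914) and Kifc3 (0.913). Fgf5 was most like Tinag (0.934), Tinagl1 (0.932) and Cck (0.928), but from low levels that were 0 in 3 libraries. Within the 7, Otx2 and Cldn6 had an r of 0.842 and Pou3f1 and Zic2 of 0.815, whereas Sox3 ran against Fgf5 (-0.648) and Cldn6 (-0.614).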

How the data were processed

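The values are a signal, at or above 0, that the authors deposited for 12 libraries in a single table keyed by RefSeq transcript. Bowtie, Bowtie2 2.1.0, CASAVA 1.8.2 and mm10 are the tools and build in the submitters' processing notes. How reads were counted, by strand or not, and how levels were scaled are not given in the sources used here. Per the labels' protocols, poly(A) ends of fragmented RNA were captured and cDNA synthesis kept the strand.

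Of 19746 entries, 38 identical duplicates were dropped. Symbols and coordinates are RefSeq's on GRCm38.p6 and, for 3′ UTRs, GENCODE M21's on GRCm38. Tests used limma 3.58.1 (R 4.3.3) on log2 levels after adding a pseudocount of 8.58 (1 ppm of the mean of the column totals), which understates the change of low genes. The filter was a mean level of 42.9 (5 ppm), which 12704 genes passed. The model had a line over hours for each of 4 conditions, so the spread is the scatter of libraries around these lines (4 residual degrees of freedom and 11.1 from a trended prior). Level differences are means over 0, 4 and 8 h, and without a 0 or 8 h library they are the 4 h value. Adjusted p-values are Benjamini-Hochberg over all genes tested, with a threshold of 0.05, and ± is limma's standard error. The labels do not say whether the times of a condition share a culture, so p-values measure only the spread between these libraries. Low values were multiples of a step, and 50 steps were read as 1 read, an inference from the values. Poisson intervals on these read equivalents, and those of shares, cover counting error only. No count model was used, since whole reads could not be recovered. The procedure was tried on simulated libraries, for KO minus WT in ESCs only. Apart from changes planted in KO ESCs, each simulated gene had the same mean level in all libraries. Slopes and comparisons with EBs were not covered.

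Named genes are Mettl3, the 7 markers, up to 4 called genes a list with the largest differences, and the 3 genes most like each marker by r. The lists are other formative and primed genes, naive and core pluripotency, neural, neural crest, primitive streak, visceral endoderm, epithelium, trophoblast and fibroblast. The members and lists were chosen with earlier results of these data known. The alternatives were other pseudocounts, filters and scalings, no variance trend, additive time terms, the libraries of 1 cell type or genotype alone, and leaving out each library. The values of 1 gene of the lists are not reported here.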

Additional observations from a re-analysis of the deposited data

Results flagged for a closer look

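The KO minus WT difference of Cldn6 was not the same in the cell types. KO minus WT in EBs less KO minus WT in ESCs was -4.09 log2 units in limma's test of that difference. The KO minus WT difference of Sox3 differed between the cell types in the other direction, by 2.61 log2 units. Both rest on 3 libraries a condition.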

How the results depend on the processing

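Of 1088 values of single genes under an alternative, 932 kept their direction and side of the threshold, 64 lost a call, 15 gained 1 and 77 changed sign. Cldn6 in both KO minus WT comparisons, Sox3 in EBs, and Cldn6 and Sox3 between WT EBs and WT ESCs passed in all 11 other settings that keep the libraries compared. The count of markers falling with time, 5 as reported, was 3 with no filter on low levels, 3 with a filter at 20 ppm (of 4 tested, since Otx2 and Pou3f1 were not, and with no call lost), 2 with equal column totals, 2 with median-ratio scaling, 3 with ribosomal protein scaling and 3 with no variance trend. Between WT EBs and WT ESCs it was 5 of 7 tested with equal column totals in place of 3 of 6, with Zic2 and Fgf5 added, and for the difference between cell types 1 with ribosomal protein scaling or no variance trend in place of 2. Without both EB libraries of 8 h, an alternative chosen after seeing the data like the subtraction of the silent genes' mean level, the EB count of KO against WT and the count of differences between cell types were 0, with fewer samples. With 1 library left out, where the lone library is assumed to vary like the others, counts ran from 0 to 3 for KO minus WT in EBs, 0 to 2 in ESCs, 2 to 4 for EBs minus ESCs in WT, 1 to 3 for the difference between cell types and 0 to 5 for the mean slope, and stayed at 0 for the rest.

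Signs of the markers changed only in values that were not called. For Cldn6 with a pseudocount of 5 ppm, the KO minus WT slope was 0.0051 in EBs and -0.024 in ESCs. Under equal column totals, median-ratio and ribosomal protein scaling in turn, EBs minus ESCs in KO was 0.46, 0.45 and 0.17 for Otx2, 0.55, 0.54 and 0.24 for Pou3f1 and 0.58, 0.57 and 0.26 for Sox3. In WT it was 0.52, 0.31 and 0.46 for Foxd3. The KO minus WT slope of Pou3f1 was -0.031, -0.0078 and -0.068 in EBs and -0.011, -0.020 and -0.0012 in ESCs, and that of Otx2 in EBs -0.024, -0.0011 and -0.059. Foxd3 in KO minus WT EBs was -0.046 with equal totals, -0.18 with ribosomal protein scaling and -0.50 without both EB libraries of 8 h. Without these, Pou3f1 had 0.31 in KO minus WT EBs and 0.14 in KO EBs minus ESCs, Foxd3 had -0.91 in KO EBs minus ESCs, and Zic2 had -0.39 in WT EBs minus ESCs and 0.59 in the difference between cell types. With 1 library left out, values whose sign changed ran over these ranges. In KO minus WT in EBs they were -1.30 to 0.97 for Foxd3 and -0.47 to 0.11 for Pou3f1. In KO minus WT in ESCs they were -0.017 to 1.19 for Pou3f1 and -1.89 to 0.60 for Foxd3. In EBs minus ESCs in KO they were -0.19 to 0.84 for Zic2, -0.20 to 0.18 for Sox3, -0.49 to 0.087 for Otx2, -0.87 to 0.34 for Pou3f1 and -0.91 to 1.72 for Foxd3. In EBs minus ESCs in WT they were -1.14 to 0.98 for Foxd3 and -0.39 to 1.42 for Zic2. In the difference between cell types they were -1.0 to 0.89 for Zic2 and -0.58 to 2.06 for Foxd3. In the KO minus WT slope in EBs they were -0.15 to 0.12 for Cldn6, -0.37 to 0.73 for Foxd3, -0.049 to 0.25 for Otx2, -0.059 to 0.23 for Pou3f1 and -0.19 to 0.72 for Zic2. In the KO minus WT slope in ESCs they were -0.29 to 0.31 for Pou3f1, -0.74 to 0.59 for Otx2, -0.19 to 0.26 for Cldn6, -0.38 to 0.14 for Zic2 and -0.36 to 0.63 for Foxd3. The cause was not tested.

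The scalings moved the median of all genes between EBs and ESCs, in log2 units, to 0.08, 0.06 and -0.25 in KO, from -0.61, and to 0.40, 0.18 and 0.34 in WT, from -0.50. In KO minus WT EBs they moved it to -0.16, -0.11 and -0.29, from 0.09. Calls between WT EBs and WT ESCs were 444 higher and 3701 lower as deposited and 1937 and 654 with equal totals, and in KO 118 and 2948 against 191 and 97. In KO minus WT EBs they were 973 and 198 as deposited and 436 and 495 with ribosomal protein scaling. Over the other settings, fits of 1 cell type or genotype included, the genes called ran from 353 to 1572 for KO minus WT in EBs (251 to 1248 with 1 library left out) and 1047 to 2016 in ESCs (717 to 1794). They ran from 111 to 3521 (172 to 3387) for EBs minus ESCs in KO, 2136 to 4898 (2094 to 4258) in WT, 63 to 499 (96 to 406) for the difference between cell types, 1052 to 3029 (919 to 3040) for the mean slope, and 0 to 701 (0 to 443) and 0 to 59 (0 to 10) for the KO minus WT slope in EBs and in ESCs. No paired analysis was possible because each group has 1 library and the labels give no replicate numbers. Depth limits these genes: 6 to 12 of the 12 libraries held under 10 read equivalents of each marker, so differences of a few reads were not detectable.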

Other observations

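The naive and core pluripotency genes moved beside the markers. Of 14 naive genes, 5 were higher in KO EBs than in WT EBs and 0 were lower, with Klf2 at 2.49 ± 0.45 log2 units, Nanog at 2.33 ± 0.23, Zfp42 at 1.98 ± 0.30 and Esrrb at 1.89 ± 0.25. In ESCs 3 were higher in KO (Klf2, 3.97 ± 0.45, Dppa3, 2.32 ± 0.48, and Klf4, 1.53 ± 0.32) and 1 was lower (Tet2, -1.54 ± 0.29). Of all genes, 7.66% were called higher and 1.56% lower in KO EBs, and 10.9% higher and 3.27% lower in KO ESCs. Between EBs and ESCs, 0 naive genes were called higher and 10 lower in KO, and 1 higher and 11 lower in WT, where 23.2% (KO) and 29.1% (WT) of all genes were called lower. These lower counts depend on the scaling. With equal column totals, median-ratio and ribosomal protein scaling in turn, 0, 0 and 2 naive genes were lower in KO, and 8 in WT under each, where 0.729%, 0.538% and 4.73% of all genes were lower in KO and 4.92%, 8% and 5.4% in WT. Of 6 core genes, 2 were higher in KO EBs than in WT EBs (Sox2, 1.71 ± 0.44, and Utf1, 1.37 ± 0.25) and 1 was lower (Lin28a, -1.38 ± 0.30). In ESCs 2 were higher in KO (Sox2, 1.65 ± 0.44, and Utf1, 0.87 ± 0.25) and 2 were lower (Tdgf1, -1.50 ± 0.18, and Pou5f1, which encodes Oct4, -0.97 ± 0.15). With no variance trend the calls of Klf2, Sox2, Utf1 and Lin28a in EBs and of Sox2, Utf1 and Pou5f1 in ESCs were lost, and that of Sox2 in EBs was also lost with equal column totals and with ribosomal protein scaling.

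Genes of later lineages were mostly under the filter. Of 12 neural genes 4 were tested, and of 6 neural crest genes 3, and 0 of either passed limma's test between KO and WT in EBs or ESCs. At an unadjusted p under 0.05 there was 1 neural gene in EBs and 1 in ESCs, and 0 neural crest genes. Of the 2 primitive streak genes tested, Mesp1 was higher in KO EBs than in WT EBs (1.11 ± 0.29) and in KO ESCs than in WT ESCs (1.22 ± 0.29), and its EB call was lost under the 3 other scalings. Of 4 trophoblast genes tested, 2 were higher in KO EBs than in WT EBs (Ascl2, 2.83 ± 0.81, and Tfap2c, 1.50 ± 0.37) and 3 in KO ESCs than in WT ESCs (Krt7, 4.31 ± 0.70, Tfap2c, 3.73 ± 0.37, and Ascl2, 2.97 ± 0.81). Krt7 and Ascl2 passed the filter only through their KO ESC levels, so the ESC count was in part set by the filter. Krt7 was at 0 in the WT ESC libraries, so the size of its difference depends on the pseudocount. Of all genes, 7.66% were called higher and 1.56% lower in KO EBs, and 10.9% higher in KO ESCs. Of 4 fibroblast genes tested, 1 was lower in KO EBs than in WT EBs (Thy1, -1.76 ± 0.42) and 0 passed in ESCs, where 2 had an unadjusted p under 0.05. The EB call of Ascl2 was kept in 5 of 11 other settings, and that of Tfap2c was lost with equal column totals and with ribosomal protein scaling.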
